A study of Mus musculus with 2 samples.

Results

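The 10 genes described here, S100a8, S100a9, Camp, Ngp, Ltf, Lcn2, Mmp9, Mpo, Elane and Ctsg, encode abundant proteins of the neutrophil's cytosol and granules. They were read in 1 droplet single-cell library of mouse spleen, in which all 10 were among the 32285 genes counted. Values are unique molecular identifiers (UMIs), each of which stands for 1 captured transcript. Of 16829 cell barcodes, 16325 had at least 200 detected genes and at most 10% of their UMIs from mitochondrial genes. A granule gene cell was one of these with at least 20 UMIs of S100a8 and S100a9 together, or at least 10 UMIs of Mpo, Elane and Ctsg together, and with no UMI of Cd79a, Cd3e or Ncr1, which mark B, T and NK cells. These limits kept 176 cells, 1.08% of the filtered cells (95% Clopper-Pearson interval 0.925 to 1.25%). S100a8 and S100a9 brought in 148 of them and Mpo, Elane and Ctsg 53, with 25 cells past both limits.

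Neutrophils fill their granules in a fixed order while they mature in the bone marrow and, in mice, also in the spleen. Primary (azurophil) granules are made first, at the promyelocyte stage, secondary (specific) granules next, in myelocytes, and tertiary (gelatinase) granules last. A granule protein is sorted by the time at which its gene is transcribed, so the transcripts a cell holds are those of the granules it is making, while the proteins stay for life.

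The mice were C57BL/6 wild type, 8 weeks old, and all had been sensitized to ovalbumin (OVA) on days 0 and 10. They were then left untreated, desensitized with OVA in PBS on days 20, 22 and 24 and OVA in Alum on days 40 and 60, or given the DCIR-2 fusion protein, which carries OVA to type 2 conventional dendritic cells, on days 20, 22 and 24. Per the study's methods, mice were given an intraperitoneal OVA challenge on day 80. Spleens were then taken, the cells were stimulated for 3 h with PMA and ionomycin, and sorted CD45+ CD11b- and CD45+ CD11b+ cells were mixed 1:1, frozen and sequenced together. The number of mice is not given in the sources used here, and CD11b, which neutrophils carry, was enriched by the sort, so 1.08% is a share of the mixture and not of the spleen. The library was tagged with 4 hashtags for 3 conditions with no map from one to the other. It is therefore 1 sample: no condition was compared, no test was run, and the intervals given cover counting error only. The library held 137010302 gene UMIs with a median of 6334 per barcode.

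The cells were ordered by the granule class of their transcripts. P cells held at least 10 UMIs of the primary genes Mpo, Elane and Ctsg and fewer than 20 of the secondary genes Camp, Ngp, Ltf and Lcn2. PS cells passed both limits, S cells passed only the secondary limit, and L cells passed neither and were kept by S100a8 and S100a9 alone. There were 39 P cells (22.2%), 14 PS cells (7.95%), 67 S cells (38.1%) and 56 L cells (31.8%). Few cells lay near the secondary limit. A primary limit of 5 gave 43 P and 21 PS cells, and an S100 limit of 40 gave 49 L cells, so these counts depended on the limit. The highest sums below it were 15, 15 and 14 UMIs for the S100 pair against 20, 24 and 25 above it, 9, 8 and 8 against 11, 14 and 16 for the primary genes, and 13, 12 and 10 against 25, 29 and 60 for the secondary genes. These genes made the classes, so their presence or absence in a class is a description. Mmp9, the proportions within a granule class and every other gene were not used to form them.

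**Figure D1:**
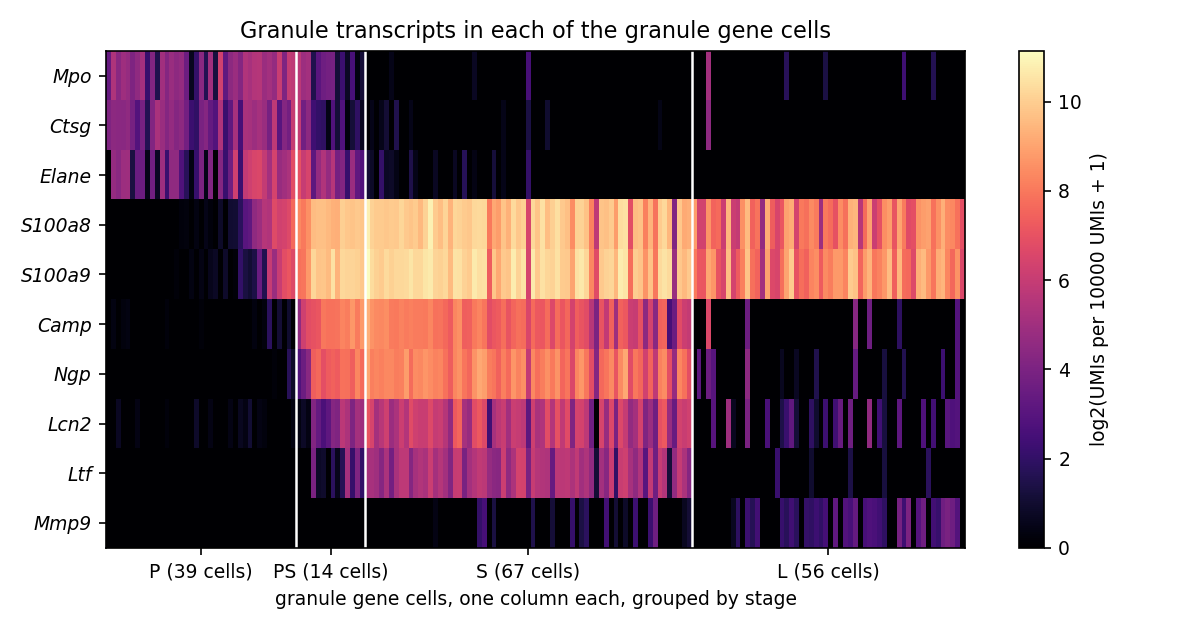
Heat map of the 10 genes (rows) in the 176 granule gene cells (columns), coloured by log2(UMIs per 10000 UMIs + 1). Cells are grouped into 39 P, 14 PS, 67 S and 56 L cells and sorted within each group by granule transcripts; the primary genes fill the left, the secondary genes the middle, and Mmp9 the right of the plot.

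The members lie in separate parts of the genome apart from the S100 pair and a group on chromosome 9. On GRCm38 with GENCODE M21, S100a8 spans chr3:90668978-90670035 on the plus strand and S100a9 chr3:90692632-90695721 on the minus strand. Camp spans chr9:109847379-109849617 on the minus strand, Ngp chr9:110419747-110423012 on the plus strand and Ltf chr9:111019271-111042767 on the plus strand. Lcn2 spans chr2:32384633-32388252 on the minus strand and Mmp9 chr2:164940780-164955850 on the plus strand. Among the primary genes, Mpo spans chr11:87793581-87804413 on the plus strand, Elane chr10:79886247-79888215 on the plus strand and Ctsg chr14:56099881-56102574 on the minus strand. All are annotated as protein coding, and the assay reads the 3′ end of the transcript.

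Because most secondary genes were high in the same cells, the bases before the starts of Ngp and Ltf are shown beside those of a primary and an S100 gene. C/EBP factors direct granulocyte development, and Cebpe in particular is required for secondary granules. The letters TTNNGNAA, a short form of the C/EBP site, were searched on both strands in the 150 bases before each RefSeq start (GRCm38.p6), the only motif searched. A window was found for 9 of the 10 genes, all but Mmp9. The letters occurred in 4 of these 9, S100a8, S100a9, Ngp and Ltf, against 22.7% of 32843 windows of this length. They were not found in the windows of Camp, Lcn2, Mpo, Elane and Ctsg, which says nothing of the factors that act there. Capitals below mark the matches. The windows were shortened to the part before the GENCODE gene start, so 2 of the 3 matches of Ngp are seen. The windows of Camp, Lcn2 and Mpo lay wholly inside the GENCODE gene. For these genes the search covered bases annotated as part of the gene, and nothing is left to show. The stretches are chr9:110419658-110419746 on the plus strand for Ngp, chr9:111019142-111019270 on the plus strand for Ltf, chr3:90695722-90695871 on the minus strand for S100a9 and chr10:79886162-79886246 on the plus strand for Elane.
Ngp: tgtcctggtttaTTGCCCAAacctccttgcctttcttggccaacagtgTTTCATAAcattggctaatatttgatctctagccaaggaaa
Ltf: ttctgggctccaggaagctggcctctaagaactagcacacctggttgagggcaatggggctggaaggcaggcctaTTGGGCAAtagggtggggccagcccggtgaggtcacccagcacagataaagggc
S100a9: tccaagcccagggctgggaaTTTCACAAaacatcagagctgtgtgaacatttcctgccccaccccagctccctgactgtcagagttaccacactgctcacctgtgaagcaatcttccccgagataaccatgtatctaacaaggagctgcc
Elane: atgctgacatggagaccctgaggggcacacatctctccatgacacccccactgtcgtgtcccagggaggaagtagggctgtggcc

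S100a8 and S100a9, whose proteins form calprotectin, the calcium- and zinc-binding complex that makes up much of the neutrophil's cytosolic protein, were the most abundant of the 10 in PS, S and L cells. S100a8 had a median of 1 UMI per cell in P cells (range 0 to 729), 2741.5 in PS cells (709 to 5292), 1675 in S cells (29 to 4021) and 84.5 in L cells (10 to 428). S100a9 had medians of 0, 3240.5, 1939 and 102 UMIs in the same order. The range of L cells thus lay below that of PS cells and overlapped that of S cells. L cells were also the shallowest, with a median of 2789.5 UMIs and 1224.5 genes per cell, against 16815 UMIs and 3420 genes in S cells and medians of 35397 and 36968 UMIs in P and PS cells.

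On the scale of UMIs per 1000000 UMIs of the group (CPM, with exact Poisson 95% intervals), which takes depth into account, the fall from S to L was smaller. S100a8 stood at 91377 CPM in S cells and 26148 CPM in L cells, a ratio of 0.286 (0.279 to 0.294). S100a9 went from 112691 to 33107 CPM, a ratio of 0.294 (0.287 to 0.301). With the limits of the classes set per 10000 UMIs, these ratios were 0.182 and 0.188. Both transcripts made up 20.4% of all UMIs of S cells and 5.93% of those of L cells. Between PS and S cells the levels were closer, with S over PS ratios of 1.21 for S100a8 and 1.24 for S100a9.

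In the 11 P cells that also passed the S100 limit there were 1.74 UMIs of S100a8 for each UMI of S100a9, and S100a8 was the higher of both in 8 of the 11 cells. Without the cells called for hashtag 9 (at least 70% of their hashtag UMIs), 7 of these P cells were left and held 1.15 UMIs of S100a8 for each of S100a9, so the size of this figure rested on 4 cells. PS cells held 0.827 UMIs of S100a8 for each of S100a9, S cells 0.811 and L cells 0.790, and S100a9 was the higher in 12 of 14, 63 of 67 and 40 of 56 cells.

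**Figure D2:**
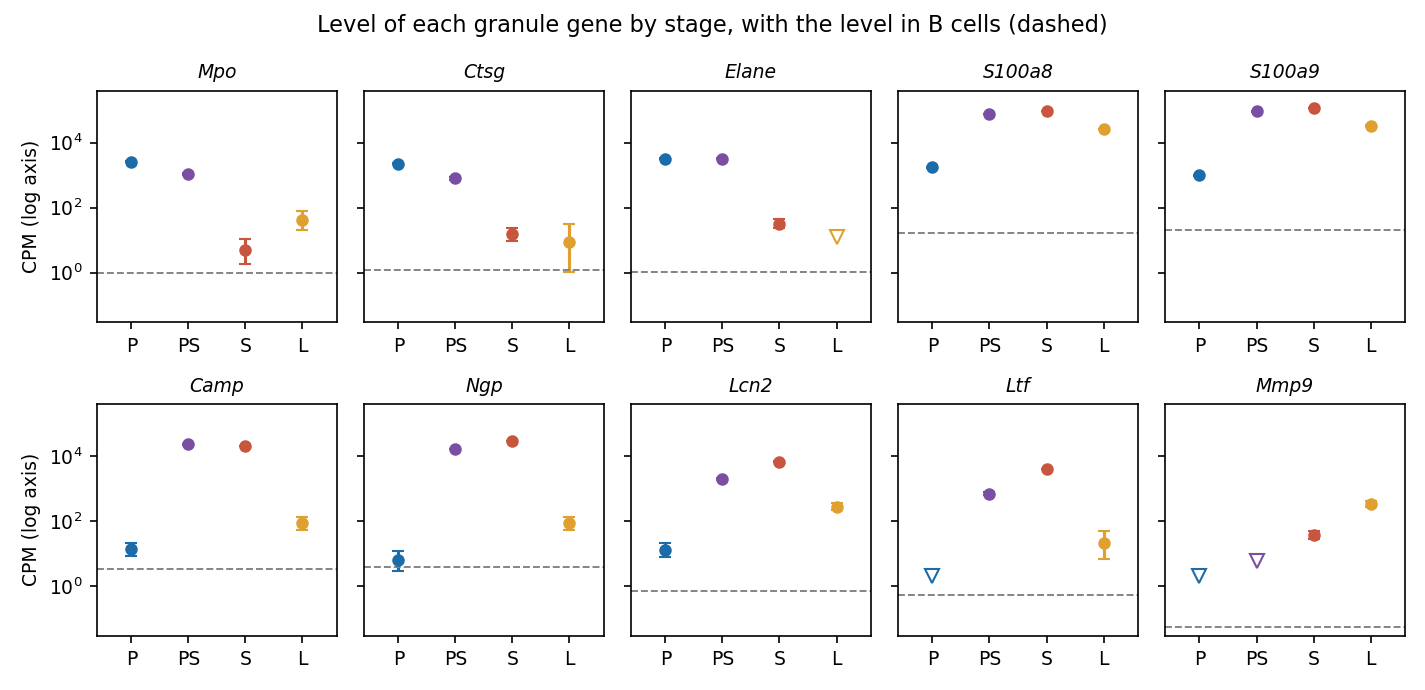
Level of each gene in CPM (log axis) in P, PS, S and L cells. Points are summed UMIs per 1000000 UMIs with exact Poisson 95% intervals (counting error), open triangles are the limit of 3 UMIs for a gene at 0, and the dashed line is the level in 2800 B cells; the secondary genes peak in PS and S cells, and Mmp9 is seen only in S and L cells.

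Mpo (myeloperoxidase, which makes hypochlorous acid), Elane (neutrophil elastase) and Ctsg (cathepsin G, a serine protease) are the primary genes. Mpo had a median of 109 UMIs in P cells (2 to 249) and 24 in PS cells (1 to 170). Ctsg had a median of 55 (5 to 346) and 12 UMIs (1 to 199). Elane had a median of 50 (0 to 529) and 78 UMIs (20 to 416). Mpo and Ctsg were thus lower in PS than in all P cells by median, Elane was higher, and the ranges overlapped. In CPM, Mpo went from 2608 to 1065, a ratio of 0.409 (0.373 to 0.447), and Ctsg from 2201 to 789, a ratio of 0.358 (0.323 to 0.397). Elane stood at 3182 and 3194 CPM, a ratio of 1.00 (0.948 to 1.06). The members took 1.07% of UMIs in P and 21.3% in PS cells. With them left out of the total (chosen after seeing the data), Elane was higher in PS cells, at 4060 against 3216 CPM. Mpo and Ctsg stayed lower on this scale. The mean of Elane over cells was also higher in PS cells, at 3572 against 2766 CPM. The direction for Elane thus depended on the scale. The ratios of all 3 genes also depended on which cells entered. Without the 65 cells called for hashtag 9 they were 0.180 for Mpo, 0.236 for Ctsg and 0.658 for Elane. A single PS cell held 199 of the 411 Ctsg UMIs of that class, and the Ctsg ratio was 0.212 without the richest cell of each class and 0.201 after thinning each cell to 1000 UMIs. Against the 11 P cells past the S100 limit alone, all 3 genes were lower in PS cells. Elane had a median of 280 UMIs in those P cells, and the ratio of PS to them was 0.454 (0.427 to 0.483) for Elane, 0.278 for Mpo and 0.226 for Ctsg.

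Elane took different shares of the primary transcripts. Among the 28 P cells below the S100 limit, Elane gave 30.6% of the UMIs of the 3 genes (29.4 to 31.8%). It gave 49.0% in the 11 P cells past the S100 limit (47.7 to 50.3%) and 63.3% in PS cells (61.4 to 65.1%). Without the cells called for hashtag 9 these shares were 27.3, 48.6 and 66.9%. Cell by cell, Elane exceeded Mpo in 4 of 28, 8 of 11 and 14 of 14 cells. Neither the limit on S100 nor that on secondary genes uses these proportions, but the 28 cells include cells with basophil and monocyte genes.

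In S cells the primary genes were nearly gone. Mpo had 6 UMIs in 3 of 67 cells, Ctsg 18 UMIs in 9 cells and Elane 38 UMIs in 15 cells. Of the 62 primary UMIs left in S cells, Elane thus gave most. In L cells Elane was at 0 in 56 cells, where 3 UMIs would be 12.9 CPM. Mpo had 10 UMIs in 5 L cells and Ctsg 2 UMIs in 1 cell. That cell, with 917 UMIs in all, also held 3 of the Mpo UMIs and 9 of the 20 Camp UMIs of the L cells. It was the only L cell with Ctsg, and its primary and secondary sums lay at or below 10 UMIs.

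**Figure D3:**
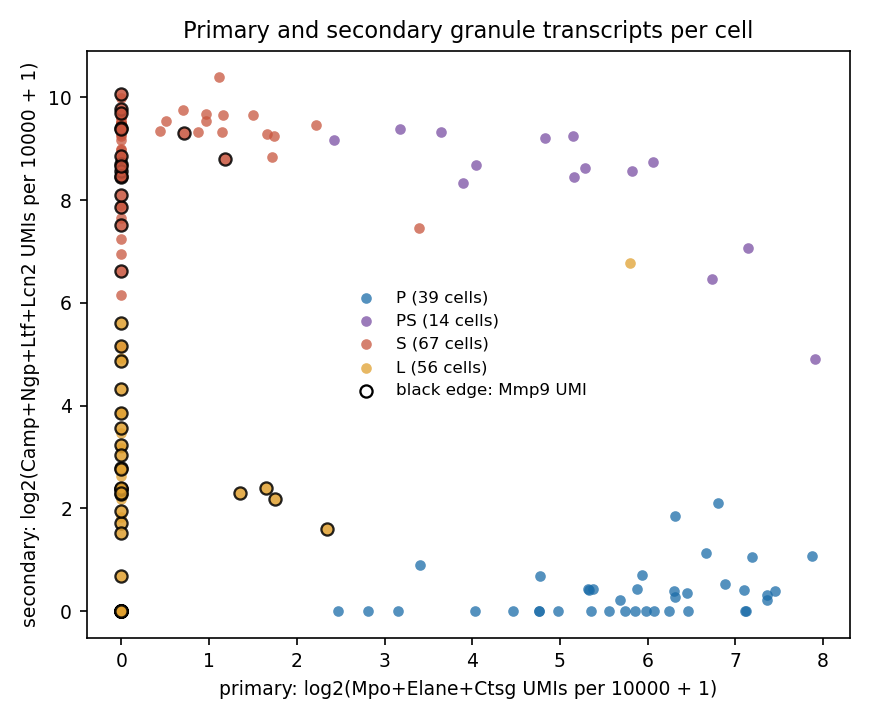
Each point is a granule gene cell, with log2(UMIs per 10000 UMIs + 1) of the summed primary genes on the x axis and of the summed secondary genes on the y axis. Colours are the 4 classes and black edges mark cells with a Mmp9 UMI; the 14 PS cells run from high primary and low secondary sums to the reverse, and none of them has Mmp9.

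The P cells were of more than 1 kind. Of 39, the 11 past the S100 limit had Cebpe, the transcription factor of secondary granule formation, in 9 cells, and had higher levels of Mpo (3836 CPM), Elane (7034 CPM) and Ctsg (3493 CPM) than the other 28 (2131, 1688 and 1700.2 CPM). Among these 28 were 8 cells with at least 3 UMIs of Mcpt8 and Prss34, the basophil proteases, at a median of 153 UMIs of Mcpt8. They had a median of 21.5 UMIs of Mpo and 42.5 of Ctsg but 2.5 of Elane. The remaining 20 had no UMI of Cebpe, and 18 of them held Irf8, a factor of the monocyte and dendritic lineages, at a median of 11 UMIs. Irf8 was not particular to these cells, as it was also at least 2-fold higher in L than in S cells. Elane was found in all 20, at a median of 32 UMIs, and stood at 1541 CPM beside 2276 CPM of Mpo. As a group, these 28 cells did not bear out the label neutrophil. Over all P cells, the neutrophil markers Ly6g, Cxcr2, Retnlg and Mmp9 were at 0, and each of them had UMIs in S and in L cells. Csf3r and Mmp8, neutrophil markers that formed no class either, were detected in P cells. The same marker list holds S100a8, S100a9, Camp and Ngp, which were used to form the classes, so their detection there is no finding. All 6 basophil and mast cell markers were at 0 in PS, S and L cells.

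Camp (the cathelicidin antimicrobial peptide), Ngp (neutrophilic granule protein), Ltf (lactoferrin, an iron binder) and Lcn2 (lipocalin 2, which binds bacterial siderophores) are the secondary genes. Camp had a median of 889.5 UMIs in PS cells (74 to 1596) and 344 in S cells (4 to 1591). Ngp had 633.5 (20 to 1349) and 496 (14 to 1674). Lcn2 had 51 (1 to 265) and 101 (0 to 348). The ranges of PS and S cells overlapped for each of these genes. Ltf differed more: its median was 6 UMIs in PS cells, 4 of which had none, and 67 in S cells (1 to 196), which all had it. A single PS cell held 191 of the 365 Ltf UMIs of that class.

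Within the secondary transcripts the mixture shifted. Camp gave 54.3% of their UMIs in PS cells (53.6 to 54.9%) and 33.7% in S cells, and exceeded Ngp in 11 of 14 PS cells but 9 of 67 S cells. Ngp rose from 39.3 to 48.3% of these UMIs. Lcn2 rose from 4.81 to 11.3%, and Ltf from 1.67 to 6.70%. In CPM, Camp was about level between PS and S cells (22739.5 and 20198, ratio 0.888), Ngp was 1.76 times higher in S cells, Lcn2 3.36 times (3.15 to 3.59) and Ltf 5.73 times (5.15 to 6.39). Without the cell richest in Ltf that ratio was 10.6, without the cells called for hashtag 9 it was 3.40, and without those called for hashtag 12 it was 10.7. All 4 genes had UMIs in PS cells as a class. Their proportions differed from those in S cells, and so did the levels of Ngp, Lcn2 and Ltf.

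L cells had lost the secondary transcripts. Camp had 20 UMIs in 6 of 56 cells, Ngp 20 UMIs in 12 cells and Ltf 5 UMIs in 5 cells. Lcn2 had 65 UMIs in 24 cells (280 CPM) and gave 59.1% of the 110 secondary UMIs of L cells (49.3 to 68.4%). The secondary limit itself sets a low sum in L cells, so these counts describe the class and are no finding about it.

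Mmp9 (matrix metalloproteinase 9, or gelatinase B, of the tertiary granules) was not used to form the classes. It had no UMI in the 39 P and 14 PS cells, where 3 UMIs would be 2.11 and 5.76 CPM. S cells held 44 UMIs in 17 of 67 cells, with 7 at most in 1 cell, and L cells 78 UMIs in 34 of 56 cells, with 6 at most. Its level was thus 37.5 CPM in S cells (27.3 to 50.4) and 336 CPM in L cells (265 to 419), a ratio of 8.94 (6.10 to 13.2), although L cells had fewer UMIs. With each cell thinned to 1000 UMIs, which left out 3 L cells that were shallower, a Mmp9 UMI was seen in 2.99% of S and 39.6% of L cells. Averaging the share of each cell instead of summing gave a smaller ratio, 4.97. Thinned levels varied with the random draw. The draw behind these shares had 29.9 CPM in S and 453 CPM in L cells. Another draw had 89.6 and 396 CPM, a ratio of 4.42, so thinning does not settle the size of the ratio. The 34 L cells with Mmp9 had a median of 3431.5 UMIs and the 22 without it 1859, so for the latter the count does not show absence.

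Mmp9 also divided the S cells. The 17 with a Mmp9 UMI were shallower than the 50 without (medians of 12397 and 18932 UMIs), yet Retnlg, which encodes a resistin-like protein of late neutrophils, stood at 8894 CPM in them against 999 CPM. Il1r2, a decoy receptor for interleukin 1, stood at 338 against 128 CPM. Camp was lower in the cells with Mmp9, at 14438.5 against 21564 CPM, whereas Ngp was at 30078 and 28679 CPM. Mki67, a marker of dividing cells, was found in 3 of the 17 cells and 38 of the 50. Csf3r, a receptor gene highest in L cells, differed little. It stood at 40.0 against 35.9 CPM and was found in 3 of the 17 cells and 19 of the 50. S cells with Mmp9 thus held more Retnlg and Il1r2 beside secondary transcripts, but not all late genes were higher. Few of these cells were in cycle by Mki67.

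Genes known from the same granules were followed in lists, and their counts were read against all genes with at least 50 UMIs in both classes together. From P to PS cells, 7.18% of 5305 such genes were at least 2-fold higher and 20.9% at least 2-fold lower. All P cells entered here, also those with basophil and monocyte genes, and the basophil proteases Prss34 and Mcpt8 fell most. The part of such cells in these shares was not tested. Of the 12 other secondary granule genes listed, 9 had enough UMIs to be tested. All 9 were higher, with a median log2 ratio of 3.90 against -0.28 over all genes tested. A gene such as Orm1 passed that limit only through PS cells, where it was high. Orm1 (an acute phase protein) went from 1 UMI in 39 P cells to 424 UMIs in 13 of 14 PS cells, Chil3 (a chitinase-like protein that has close copies, so its count is uncertain) from 84.5 to 3091 CPM, and Wfdc21 from 85.9 to 1534 CPM. Of the 10 other primary genes, Lyz2 (lysozyme) was higher and Calr (calreticulin, the chaperone that binds newly made myeloperoxidase) was lower, from 1668 to 347 CPM. Prtn3 (proteinase 3) stood at 2935 and 2668 CPM, but at 5865 CPM in the 11 P cells past the S100 limit, against which the PS level was 0.455 times as high.

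From PS to S cells, 7.73% of 4284 genes were higher and 6.72% lower, with a median log2 ratio of -0.02. None of the 9 other primary genes tested was higher and 6 were lower, Prtn3 (20.4 times), Prss57, Ms4a3, Cst7, Nkg7 and Calr, and their median log2 ratio was -2.53. Of the 12 other secondary genes, 3 were higher, Olfm4, Ifitm6 and Mmp8. Olfm4 (olfactomedin 4), which is known from a subset of neutrophils, was in 1 of 14 PS and 6 of 67 S cells, with up to 91 UMIs in 1 cell. Of the other tertiary and secretory vesicle genes 6 of 9 were higher and none lower, with a median log2 ratio of 2.20. Retnlg stood at 46.1 and 2513 CPM, Fpr2 (a formyl peptide receptor) at 23.0 and 238 CPM and Arg2 at 13.4 and 87.0 CPM. Retnlg passed the limit on UMIs only through S cells, with 24 UMIs in PS and 2946 in S cells. Others of the list may have passed in the same way, so this count is a description. Stfa2l1, a stefin of a family with near-identical copies and so of uncertain count, went from 1 to 261 UMIs.

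From S to L cells, 23.8% of 3943 genes were higher and 19.9% lower, with a median log2 ratio of 0.13. Of the 12 other secondary genes 9 were lower (median log2 ratio -3.38), Orm1 and Chil3 most, and only Mmp8, the neutrophil collagenase, was higher (59.7 and 151 CPM). Of the 7 other primary genes tested 5 were lower, and Srgn, the proteoglycan that packs granule proteins, was higher (2896 and 7463 CPM). Cybb, the membrane subunit of the NADPH oxidase, went from 2157 to 81.7 CPM. Among the tertiary genes 4 of 9 were higher, with Il1r2 at 168 and 1966 CPM and Adam8 (a cell surface protease) at 150.1 and 391 CPM, and Fpr2 was lower. Of 10 inhibitors and partners of granule proteins tested, 2 were higher and 3 lower. Slpi, the inhibitor of elastase and cathepsin G, stood at 228 CPM in S and 1428 CPM in L cells, after 487 CPM in P and 94.1 CPM in PS cells. Serpinb1a, the other inhibitor of elastase on the list, was highest in P cells (713 CPM) and had 2 UMIs in L cells.

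Receptors and egress genes were higher late. Of 12 maturation and egress genes tested from S to L cells, 9 were higher (median log2 ratio 1.97) and only Ly6g was lower (66.5 and 30.1 CPM). Over all genes, 23.8% were higher and 19.9% lower from S to L cells. Csf3r, the receptor for granulocyte colony-stimulating factor, stood at 23.2, 36.5, 36.7 and 1093 CPM in P, PS, S and L cells and was found in 45 of 56 L cells. Cxcr2, the chemokine receptor that draws neutrophils out of the marrow, was at 0 in P cells and stood at 21.1, 75.1 and 228 CPM in the others. Between the ends of the order, L against P, 21.5% of 5077 genes were higher and 37.2% lower. P cells here include those with basophil and monocyte genes, whose part in these shares was not tested. Of the 12 other tertiary and secretory vesicle genes listed, 7 had enough UMIs to be tested, and all 7 were higher. Retnlg, which had no UMI in P cells and 923 in 48 of 56 L cells, passed that limit only through L cells.

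**Figure D4:**
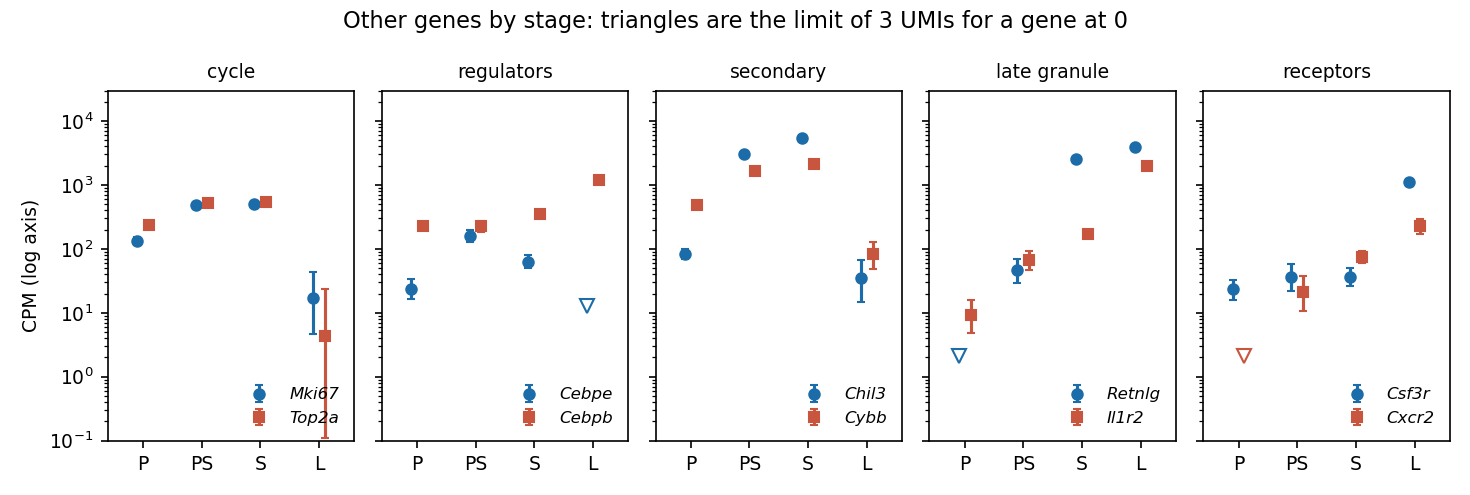
Levels in CPM (log axis) of cycle genes, transcription factors, other secondary genes, late granule genes and receptors in P, PS, S and L cells. Points have exact Poisson 95% intervals (counting error) and open triangles are the limit of 3 UMIs for a gene at 0; Mki67 and Top2a drop in L cells, Cebpe peaks in PS cells, and Csf3r is high only in L cells.

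Cell cycle transcripts were low in L cells, and some S cells lacked Mki67. Mki67 was found in 28 of 39 P, 14 of 14 PS, 41 of 67 S and 2 of 56 L cells, at 132, 482, 497 and 17.2 CPM. Of 12 cycle genes tested from S to L cells 10 were lower and none higher, beside 19.9% lower and 23.8% higher over all genes. Top2a (topoisomerase II) went from 535 to 4.30 CPM. None of 13 cycle genes changed by 2-fold from PS to S cells, beside 7.73% higher and 6.72% lower over all genes. The 26 S cells without Mki67 had 7943 CPM of Retnlg against 709 CPM in the 41 with it, and 12948 against 22606 CPM of Camp. They held 2 UMIs of Top2a but kept the secondary genes, with Ngp at 25150 against 30208 CPM and Lcn2 at 6677 against 6817 CPM. Csf3r, unlike Retnlg, was not higher in them, at 20.5 against 42.0 CPM, on 6 and 37 UMIs with overlapping intervals. Depth moved with this division too, as the cells without Mki67 had a median of 8448.5 UMIs and those with it 21874, and its part in it was not tested.

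From S to L cells 5 of 8 transcription factors tested were higher and 1 lower, beside 23.8% higher and 19.9% lower over all genes. Over all genes, 7.18% were higher in PS than in P cells. Cebpe was the 1 of 9 transcription factors that was higher in PS than in P cells (24.0 and 161 CPM). Cebpe was lower again in S cells (63.1 CPM) and had no UMI in L cells, where 3 UMIs would be 12.9 CPM. In the 11 P cells past the S100 limit it stood at 68.0 CPM, so from that base its rise to PS cells was smaller. Cebpb, which is known to drive granulocyte production under stress, stood at 225 CPM in P and PS cells, 346 in S and 1191 CPM in L cells. Junb stood at 376 CPM in S and 1437 CPM in L cells. Myb, a factor of dividing progenitors, had 62 UMIs in P cells (43.7 CPM) and none in L cells.

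For Mpo and Camp, most of the genes with the most similar values were those of the same granule. Over the 176 cells and 6811 genes, Pearson's r of log2(UMIs per 10000 UMIs + 1) is given as a description, since the cells share 1 library and differ in depth. The primary genes and the S100 pair also chose the cells, and the secondary genes helped to form the classes, so r among the members is not independent of the limits. Within P cells alone r was 0.519 for Mpo and Ctsg and 0.823 for Mpo and Elane. Within S cells it was 0.790 for Camp and Ngp. Nearest to Mpo were Ctsg (0.925), Elane (0.888), Prtn3 (0.881), Atp5g1 and Calr. Nearest to Camp were Ngp (0.969), Chil3 (0.930), Lcn2, Ltf and Cd177, a surface protein of neutrophils. S100a8 was nearest to S100a9 (0.981), then to Wfdc21 (0.758), Lcn2, Pglyrp1 and Ngp. Mmp9 had weaker neighbours, S100a11 (0.615), Il1r2 (0.613), Tyrobp, Msrb1 and Adam8, at 122 UMIs of Mmp9 in all.

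Genes known to respond to PMA and ionomycin, which all cells had received, also differed between the classes. From S to L cells 7 of 11 response genes tested were higher and 1 lower, beside 23.8% higher and 19.9% lower over all genes. Cxcl2 (a neutrophil chemoattractant) stood at 1847 and 4392 CPM and Il1b (interleukin 1 beta) at 279 and 2886 CPM, while Ccl3 was lower (2190 and 817 CPM). Ccl3 and Ccl4 were highest in P cells, at 3815 and 4324 CPM, with up to 1123 and 1239 UMIs in 1 cell. Il10 was rare in all classes, with 34, 25, 23 and 8 UMIs in P, PS, S and L cells. In CPM, Il10 just reached the 2-fold limit as higher in PS than in P cells. That call rests on 25 and 34 UMIs, and P cells here include those with basophil and monocyte genes. Heat shock transcripts moved with the L class: Hspa1a and Hspa1b, near-identical copies of uncertain count, had 99 and 73 UMIs in 11 and 7 of 56 L cells, 83 of the 99 in 1 cell, against 1 and 3 UMIs in S cells, and their part in the other differences was not tested.

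By raw UMIs, genes of the monocyte gate and Vcam1, of the macrophage gate, were seen more often before the L class. Irf8, on the monocyte list but not in the sums below, went the other way and was at least 2-fold higher in L than in S cells. At least 3 UMIs of Ly6c2, Ccr2, Csf1r and F13a1 together, the monocyte gate, were held by 31 of 39 P, 14 of 14 PS, 54 of 67 S and 1 of 56 L cells. At least 3 UMIs of C1qa, C1qb, C1qc and Vcam1 were held by 16 P, 13 PS, 15 S and 1 L cells. The 8 genes of the monocyte list summed to 1256, 1365, 909 and 563 CPM in P, PS, S and L cells. L cells were the shallowest, at a median of 2789.5 UMIs, which a fixed count of UMIs does not take into account. The part of depth in these counts, and of these markers in the differences between classes, was not tested. Ebf1, a B cell factor, had 90 UMIs in 8 of 67 S cells and 67 UMIs in 6 of 56 L cells, and the class II genes H2-Aa and H2-Eb1 had 107 and 84 UMIs in 17 and 13 S cells. The summed B cell markers, with Cd79a at 0 by choice, ranged from 0 to 19.0 UMIs per 10000 over S cells and 0 to 41.0 over L cells, with a median of 0 in both. The doublet caller Scrublet marked 9 of the 176 cells and 7.99% of all filtered cells. Ly6c2, which monocytes and young granulocytes share, stood at 1282 CPM in PS, 780 CPM in S and 60.2 CPM in L cells, and Vcam1 at 553 CPM in PS cells. Of the 6 macrophage markers, which summed to 570 CPM in PS cells, C1qa and C1qc were at 0 in all 4 classes, C1qb had 10 UMIs in P and 1 in S cells, and Mertk had 9 UMIs in P cells.

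Outside these cells the transcripts were present at low levels. S100a8 was seen in 17.8% of 2807 B cells (median 10419 UMIs) and in 2.71% after thinning to 1000 UMIs. In B cells below both limits, S100a8 stood at 16.8 CPM, Camp at 3.43, Ngp at 3.94, Mpo at 0.984 and Mmp9 at 0.0563 CPM. Per cell, S100a8 had 0.213 UMIs in 2800 B cells, 0.188 in 1524 T cells, 0.188 in 4451 NK cells and 0.191 in 152 dendritic-gated cells, although their median depths ranged from 5622 to 10437 UMIs. The S100a8 content per cell was thus much the same in these 4 groups, which had been limited to cells below both limits. The 6 macrophage-gated cells held 6 S100a8 UMIs, 1 per cell. S100a8 stood to S100a9 as 0.830 (0.744 to 0.927) in B, 0.804 in T and 0.801 in NK cells, and as 0.821 in the granule gene cells.

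**Figure D5:**
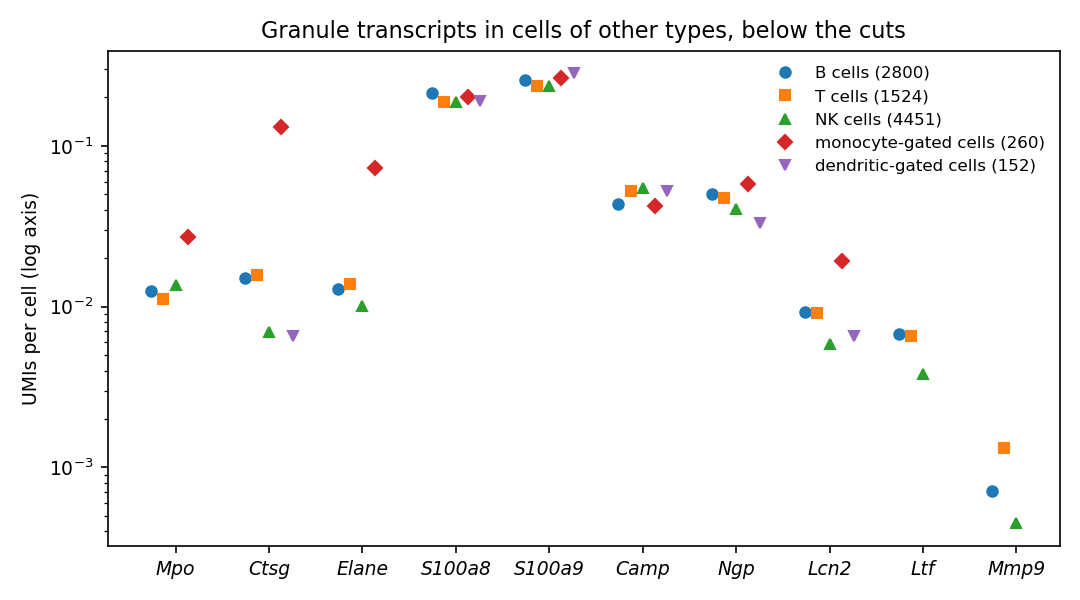
UMIs per cell (log axis) of the 10 genes in B, T, NK, monocyte-gated and dendritic-gated cells below both limits, with the number of cells in brackets; genes at 0 are not drawn. Cell types lie close together for S100a8, S100a9, Camp and Ngp, and the 260 monocyte-gated cells lie above the others for Mpo, Ctsg, Elane and Lcn2.

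For the primary genes the groups differed more. Monocyte-gated cells below the limits held 0.131 UMIs of Ctsg, 0.0731 of Elane and 0.0269 of Mpo per cell, against 0.0150, 0.0129 and 0.0125 in B cells. There were 0.0586 UMIs of Mpo for each S100a8 UMI in B cells (0.0404 to 0.0825) and 0.0276 in the granule gene cells (0.0268 to 0.0284). Read against B cells in CPM, the Camp level of P cells (14.1 CPM, 8.61 to 21.8) was higher but rested on 20 UMIs. The interval of the Ngp level (6.34 CPM, 2.90 to 12.0) held the B cell value. For a fixed content per cell, CPM falls with depth, and median depths were 35397 UMIs in P, 2789.5 in L and 10389 in B cells. B cells held 0.0436 UMIs of Camp and 0.05 of Ngp per cell. The 39 P cells held 20 and 9 UMIs, so per cell both genes were higher in P cells. The 9 Ngp UMIs lay in 3 cells. Camp and Ngp in L cells (86.0 CPM and 20 UMIs in 56 cells, each) were above B cells on both scales, by less per cell than in CPM. Mmp9 had 2 UMIs in all 2800 B cells.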

How the data were processed

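The authors aligned the reads to GRCm38 and counted UMIs per gene and hashtag with Cell Ranger, 7.2.0 in the submitters' processing notes but 7.0.0 inside the deposited matrix. The deposited values are raw counts of UMIs, not normalized. Both libraries lie in 1 matrix over the same 16829 barcodes, at a median of 6334 gene UMIs. Barcodes under 200 genes or above 10% mitochondrial UMIs were dropped. Cells past a limit numbered 6 outside this filter and 35 with a Cd79a, Cd3e or Ncr1 UMI, and neither set was counted among the granule gene cells. Those of the 35 that met the limits of another cell type stayed in that group, except where cells below both limits are named.

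The members, limits and lists were chosen with earlier results of these data known. The text names the members, the genes of fixed lists (granule classes, maturation, transcription factors, cycle, stimulation, inhibitors, cell type markers), the 5 genes nearest to Mpo, Camp, Mmp9 and S100a8, and genes with the 5 highest or lowest ratios between classes. BC100530 of the inhibitor list was not found under that name.

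Levels are summed UMIs per 1000000 with exact Poisson intervals, shares have Clopper-Pearson intervals (95%), and a ratio against 0 would use 3 UMIs. Ratios between classes were called at 2-fold for genes with at least 50 UMIs in both classes together, so a gene could pass through 1 class alone. On simulated counts for S over PS, this found 200 of 200 genes changed 4-fold and called 19 of the others among 4068 genes. The changed genes were drawn from well-counted genes only. The counts were Poisson draws from a shared mean, with no spread between cells beyond depth. The simulation thus checks the calculation and gives no error rate for the real classes. B cells had at least 2 UMIs of Cd79a and Ms4a1, T cells at least 2 of Cd3e, Cd3d and Cd3g, NK cells at least 2 of Ncr1 and Klre1, and other cells at least 3 UMIs of myeloid genes. Doublets were not removed beyond the lineage limit; removal with Scrublet (expected rate 0.1) was an alternative, as were other limits, filters, hashtags and scalings; P cells past the S100 limit as the base, and proportions without hashtag 9, were added after seeing the data. Groups came from the labels, which give 1 pool. Python 3.11.15, NumPy 2.4.6, SciPy 1.17.1 and scanpy 1.11.5 were used. Some genes of the lists are counted but not reported by name here.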

Additional observations from a re-analysis of the deposited data

Results flagged for a closer look

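Granule transcripts also appeared in cells past a limit that were not counted among the granule gene cells. Among filtered cells with a UMI of Cd79a, Cd3e or Ncr1, 30 reached the limit on S100a8 and S100a9, and 11 reached the limit on Mpo, Elane and Ctsg. In B cells at large the 99th percentile of the S100 sum was 4 UMIs, but the limits chose these cells, so their higher sums are no finding. Together these were 35 cells, with a median of 22379 UMIs against 15900 in the cells that were kept. Of them, 20 carried Ncr1 alone among the 3 lineage genes, 16 had a single lineage UMI and 16 reached the secondary limit. Scrublet marked 12 of the 35 and 9 of the 176. S100a8 stood at 36073 CPM and Camp at 6953 CPM in them, and what part free RNA or doublets had in this was not tested.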

How the results depend on the processing

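Levels of the 10 genes in the 4 classes were recomputed over 21 alternative settings. Of these, 605 lay within the main interval, 103 were higher and 132 lower. None of the 3 ratios followed below, of Mmp9, Mpo and Ltf, turned its direction. This does not hold for every ratio in the text. Elane, PS over P, was at 0.658 without hashtag 9, but its mean over cells was 2766 CPM in P and 3572 CPM in PS cells. Requiring 70% of hashtag UMIs from 1 hashtag left 82 cells, with 9 PS, 43 S and 3 L cells, and leaving out hashtag 9 left 111, with 20 P, 7 PS and 30 S cells. The Mmp9 ratio of L over S was 5.94 with limits per 10000 UMIs, 4.97 as a mean over cells and 4.42 after thinning. Thinned ratios rest on 1 random draw and varied with it. Another draw had Mmp9 at 29.9 CPM in S and 453 CPM in L cells, and Mpo at 1286 CPM in PS and 2410 CPM in P cells. The Mpo ratio of PS over P was 0.319 with a primary limit of 5, 0.454 with limits per 10000 UMIs, 0.493 under the hashtag rule, 0.180 without hashtag 9, 0.461 without hashtag 12, 0.472 as a mean over cells, 0.363 thinned, 0.311 without the richest cells and 0.514 with the 10 genes left out of the total (chosen after seeing the data). The Ltf ratio of S over PS was 3.64 with a primary limit of 5, 10.2 with limits per 10000 UMIs, 4.63 under the hashtag rule, 3.40, 6.52 and 10.7 without hashtags 9, 10 and 12, 7.03 as a mean over cells, 11.0 thinned and 10.6 without the richest cells. As a mean over cells, 11.9% of genes were lower from PS to S. Allowing 1 lineage UMI and leaving out cells with basophil genes, also chosen after seeing the data, moved no count of cells by over 1.5 times. The low depth of L cells limits what a missing Mmp9 UMI shows. No paired analysis was possible because the pool is 1 sample.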

Other observations

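Hashtags could be read for 82 of the 176 granule gene cells, those with at least 70% of their hashtag UMIs from 1 hashtag. Of these, 65 carried hashtag 9, 9 carried hashtag 10, 2 carried hashtag 11 and 6 carried hashtag 12. Hashtag 9 thus took 79.3% of them, against 57.1% of the 3052 filtered cells that could be read and 72.3% of the 307 such NK cells. Within S cells hashtag 9 had 37 of 43 cells. L cells were mostly not readable, with 3 of 56 past 70% and a median largest share of 46.3%, against 73.8% in S cells. In the 37 S cells of hashtag 9, Camp stood at 18900.2, Ngp at 28809.8 and Ltf at 3998 CPM, beside 20198, 28947 and 4016 CPM in all S cells. As the hashtags carry no condition in the labels, these are values of the pool and say nothing of treatment.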
